A study of Mus musculus with 24 samples.

Results

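The genes examined were 9 genes of pericytes and vascular smooth muscle: Acta2, Tagln, Myh11, Cnn1, Pdgfrb, Rgs5, Abcc9, Vtn and Notch3. They were chosen by name, as rows of the gene table that carry those symbols, and all 9 were found among the 54532 genes listed and among the 27286 tested. RNA was sequenced from the brain hemispheres of 24 male wild-type C57Bl6 mice aged 8 to 12 weeks at the start, in 4 groups of 6. An osmotic minipump under the skin ran for 2 weeks. It held saline (the vehicle), or it delivered 0.7 mg/kg of angiotensin II per day. In each arm, 6 mice also received human amnion epithelial cells (AECs), 1000000 per mouse through the tail vein, which gave the groups vehicle + AECs and angiotensin II + AECs. Per the study's methods, mice not given AECs had saline injected by the same route. All 4 groups carried a pump. Vessels were not isolated from the hemispheres, so each value is an average over neurons, glia and all vessel types, and fewer mural cells or less RNA per mural cell cannot be told apart.

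Mural cells wrap the endothelial tube. On arteries and arterioles they are vascular smooth muscle cells, which contract through actin and myosin and set vessel diameter, and on capillaries they are pericytes, which are recruited by endothelial PDGF-B acting on the receptor PDGFRβ and which help to maintain the blood-brain barrier. Angiotensin II is a peptide that constricts vessels and raises blood pressure, and the comparison of the 4 groups asks whether RNA of these cells differed in the brain with its infusion or with the injected cells.

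Levels are given as FPKM, fragments scaled to gene length and library size, which are per length and can be compared between genes. The fragments behind them were recovered from the steps of the values and numbered 16536449 to 25308700 per mouse. Snap25 of neurons (245 to 310 FPKM), Mbp of oligodendrocytes (413 to 725) and Gfap of astrocytes (63.9 to 111) were high in every mouse. The libraries fell apart by the sum of their FPKM values. In 18 libraries the sum was 277116 to 298301 and mitochondrial genes took 4.79% to 5.75% of the reads, and in the other 6 the sum was 338334 to 348597 and mitochondrial genes took 6.17% to 6.85%. The high total FPKM was found in replicates 5 and 6 of angiotensin II + AECs, replicate 6 of vehicle + AECs, replicate 5 of angiotensin II, and replicates 5 and 6 of vehicle. The labels do not say what set them apart, and the sets are not groups of the study. Group differences of the members are given without and with a term for the set, and the correlations within the sets.

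The mean level over all mice was highest for Vtn (50.1 FPKM), which encodes vitronectin, a matrix glycoprotein that brain pericytes secrete. It was followed by Rgs5 (19.7 FPKM), a regulator of G-protein signalling and a pericyte marker, and by Acta2 (12.1 FPKM), the smooth muscle α-actin. Pdgfrb, the receptor for PDGF-B, stood at 4.95 FPKM. Notch3, the receptor that keeps arterial smooth muscle differentiated, stood at 3.06 FPKM, and Myh11, the smooth muscle myosin heavy chain, at 1.78 FPKM. Abcc9 (0.78 FPKM) encodes SUR2, the regulatory subunit of the ATP-sensitive potassium channel of mural cells. Cnn1 (0.41 FPKM), the actin-binding protein calponin 1, and Tagln (0.18 FPKM), the actin-binding protein transgelin, were lowest. Vtn exceeded Rgs5, Acta2 exceeded Pdgfrb, Pdgfrb exceeded Notch3 and Myh11 exceeded Abcc9 in 24 of 24 mice. Notch3 exceeded Myh11 in 22 of 24. The order of Rgs5 and Acta2 turned with the library set: Rgs5 was the higher in 18 of 18 libraries of low total FPKM and in 0 of 6 of high total FPKM. Abcc9 and Cnn1 turned in the same way, 18 of 18 against 0 of 6, and Cnn1 exceeded Tagln in 12 of 18 and 6 of 6.

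In the deposited table, on GRCm38, Acta2 (ENSMUSG00000035783) lies on chromosome 19 from 34241090 to 34255336 on the minus strand and Myh11 (ENSMUSG00000018830) on chromosome 16 from 14194535 to 14291372. Rgs5 (ENSMUSG00000026678) lies on chromosome 1 from 169655501 to 169695813 on the plus strand and Notch3 (ENSMUSG00000038146) on chromosome 17 from 32120820 to 32166880. All 9 are protein-coding genes.

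The 2 lowest members rest on few reads. Tagln had 1 to 14 reads per mouse and Cnn1 4 to 64, against 1440 to 2118 for Rgs5. Over the 18 libraries of low total FPKM, the coefficient of variation of Tagln was 38.5%, and counting error alone gives 42.5%, so differences between mice in Tagln were not detectable at this depth. For Acta2 these values were 15.4% and 6.27%, for Myh11 14.0% and 6.89%, and for Rgs5 7.04% and 2.42%. The genes also differ in how far their exons are their own. In the GENCODE M21 annotation, 67.9% of the 1988 exonic bases of Tagln (chromosome 9, 45929619 to 45936058, minus strand, GRCm38) lie under exons of genes on the opposite strand, mostly Pcsk7, a proprotein convertase. As the use of strand in counting is not given in the sources used here, Tagln is uncertain on this ground too. The shared portion was 6.03% for Notch3 and 1.89% for Abcc9, and 0% for the other 6 members.

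The largest differences in these genes lay between the library sets. Acta2 ran from 5.58 to 10.1 FPKM (mean 7.51 ± 1.16 SD, n = 18) in the libraries of low total FPKM and from 21.8 to 31.6 FPKM (mean 25.8 ± 3.33 SD, n = 6) in those of high total FPKM. Myh11 ran from 1.03 to 1.77 and from 2.15 to 3.27 FPKM, and Cnn1 from 0.083 to 0.406 and from 0.647 to 1.11 FPKM. In none of these 3 contractile genes did the sets overlap. Vtn, too, was apart, at 37.7 to 47.5 and 66.3 to 78.7 FPKM. How many of all genes were apart in this way was not counted, so whether these members stand out in it is not known. Abcc9 went the other way, at 0.670 to 1.03 and 0.466 to 0.708 FPKM, with an overlap. Pdgfrb (4.09 to 5.53 and 4.76 to 5.80 FPKM), Rgs5 (15.7 to 21.5 and 17.6 to 23.2), Notch3 (2.76 to 3.36 and 2.77 to 3.31) and Tagln (0.027 to 0.294 and 0.026 to 0.422) overlapped widely.

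**Figure D1:**
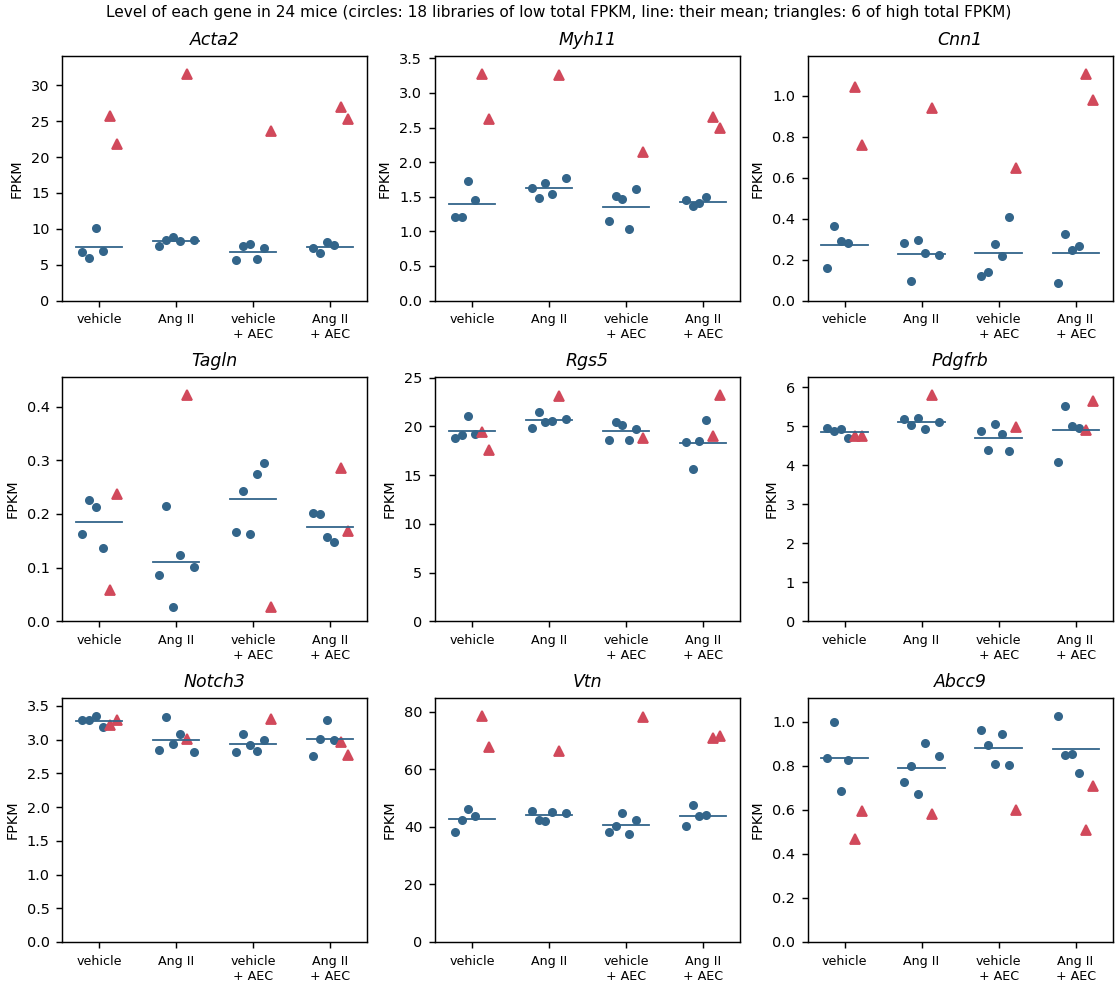
FPKM of each of the 9 genes (vertical axes, from 0) in the 24 mice by group, with 1 point per mouse, circles for the 18 libraries of low total FPKM, a line at the mean of the circles in each group, and triangles for the 6 libraries of high total FPKM; Ang II is angiotensin II and AEC amnion epithelial cells. The triangles of Acta2, Myh11, Cnn1 and Vtn stand above all circles in every group, from 21.8 against at most 10.1 FPKM in Acta2, and those of Notch3 lie within the range of the circles, while 2 of the 6 triangles of Pdgfrb (up to 5.80 FPKM) and 2 of Rgs5 (up to 23.2) lie above it.

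With the library set as a term beside the 4 groups in limma, the log2 difference of high minus low was 1.79 for Acta2 (SE 0.085, adjusted p = 3.1e-14), 1.58 for Cnn1 (SE 0.196, adjusted p = 2.4e-07), 0.88 for Myh11 (SE 0.087, adjusted p = 7.5e-09) and 0.75 for Vtn (SE 0.048, adjusted p = 3.6e-12). For Abcc9 it was -0.49 (SE 0.090, adjusted p = 6.2e-05). Among all genes tested, 22.3% were called higher and 31.0% lower in the 6 libraries at an adjusted p under 0.05, so a call between the sets is common and 4 higher and 1 lower of 9 members is to be read against that. For the other 4 members the difference was 0.08 (Pdgfrb, adjusted p = 0.192, 95% confidence interval -0.023 to 0.176), 0.06 (Rgs5, 0.347, -0.047 to 0.169), 0.01 (Notch3, 0.870, -0.079 to 0.099) and -0.02 (Tagln, 0.966, -0.53 to 0.50). With median ratio scaling it was 0.14 for Pdgfrb and 0.13 for Rgs5 (limma adjusted p = 0.012 and 0.036), so that these 2 depend on the scaling.

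The sets were cut by the sum of FPKM, which rises as a larger share of reads falls on short genes. A trend of the set difference with gene length was thus set in advance by that cut. Over all genes, the difference between the sets moved with gene length. Its median was 0.46 among the shortest of 12075 genes cut into 5 classes by length, then 0.16, -0.07, -0.27 and, among the longest, -0.49. It also moved with GC content, from a median of -0.34 in the class of lowest GC to 0.38 in the class of highest. Abcc9, 8373 bases long, lay near the median of genes of like length (-0.42), and Vtn, 2030 bases, lay above its own (0.36). Acta2 (1781 bases, like-length median 0.43), Cnn1 (2736 bases, 0.23) and Myh11 (7599 bases, -0.38) lay above the 95th percentile of their length class. Notch3, at 8044 bases, differed by 0.01 between the sets where genes of its length had a median of -0.40. What separates the sets, and the part of length, GC or vessel content in it, was not tested.

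**Figure D2:**
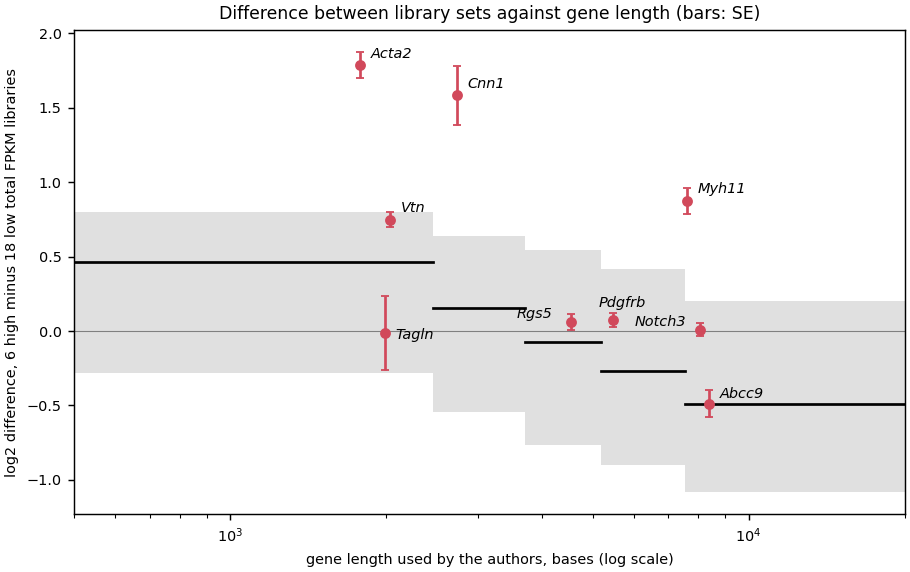
Log2 difference of the 6 libraries of high minus the 18 of low total FPKM (vertical axis) against gene length in bases (horizontal, log scale), with points and SE bars for the 9 genes and, for each of 5 classes of all genes by length, a black line at the median and a grey band from the 5th to the 95th percentile. The medians step down from 0.46 to -0.49, Abcc9 lies on its step, and Acta2, Cnn1 and Myh11 lie above the band.

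Acta2 is the gene whose transcription by serum response factor through CArG boxes is the textbook case of smooth muscle control, and the stretch before its start is shown for that reason, beside that of Rgs5, a mural gene whose library sets overlapped. Sequences of 250 bases before the start are from a table of RefSeq promoters on GRCm38.p6, in which 6 of the 9 members were matched. The Acta2 stretch is chr19:34255374-34255623 on the minus strand, and the Rgs5 stretch is chr1:169655251-169655500 on the plus strand. Capitals mark CArG boxes with at most 1 mismatch in the central A or T letters.

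Acta2: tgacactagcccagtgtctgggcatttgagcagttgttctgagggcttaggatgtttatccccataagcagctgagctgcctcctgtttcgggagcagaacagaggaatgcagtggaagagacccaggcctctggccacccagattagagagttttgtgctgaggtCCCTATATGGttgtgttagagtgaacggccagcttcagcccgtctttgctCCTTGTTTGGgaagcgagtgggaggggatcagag

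Rgs5: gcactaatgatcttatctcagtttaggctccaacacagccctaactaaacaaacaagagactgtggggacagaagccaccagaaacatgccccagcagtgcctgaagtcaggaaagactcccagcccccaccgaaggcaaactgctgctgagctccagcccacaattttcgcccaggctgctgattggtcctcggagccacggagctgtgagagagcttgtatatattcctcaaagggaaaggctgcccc

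The Acta2 stretch held 2 such boxes, CCCTATATGG at 84 and CCTTGTTTGG at 34 bases before the RefSeq start, and none without a mismatch. That start lies upstream of the one in the deposited coordinates, 34255336 on the minus strand, from which both boxes are farther. Boxes with at most 1 mismatch, searched on both strands, were in 8.59% of 32851 promoters of the same length and boxes without a mismatch in 1.47%. The stretches of Rgs5, Cnn1, Abcc9, Vtn and Notch3 held none of either kind. TGGGAA, the core letters bound by the Notch partner RBPJ, was searched on both strands as well and stood once in each of Acta2 (where it overlaps the second box), Abcc9 and Vtn, against 21.6% of all promoters with at least 1. These are matches of letters only.

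Other vascular genes were taken from lists of markers. Of 18 other smooth muscle genes, 12 were higher and 4 lower in the libraries of high total FPKM at an adjusted p under 0.05, with a median log2 difference of 0.66 where that of all genes tested was -0.07. Myl9, a myosin light chain, was higher by 1.26 and the intermediate filament gene Des by 0.82, while Cald1 (caldesmon, -0.68) and Flna (filamin A, -0.40) were lower. Cald1 and Flna are 12041 and 9400 bases long. Mylk, the myosin light chain kinase gene, is 11263 bases long and was higher by 0.20 (limma adjusted p = 0.015). The class of longest genes had a median of -0.49 and a 95th percentile of 0.20, and the part of length was not tested. Of 12 other pericyte genes, 7 were higher and 2 lower (median 0.35). Kcnj8, the pore subunit that pairs with SUR2, was higher by 0.50 (SE 0.096) where Abcc9 was lower by 0.49. Kcnj8 is 2548 bases long and Abcc9 8373, and the medians of their length classes were 0.16 and -0.49. Of 11 endothelial genes, 5 were higher and 4 lower (median -0.06), and of 11 genes of meningeal fibroblasts 9 were higher and 0 lower (median 0.41). The summed level of those 11 meningeal genes was 29.9 to 37.4 FPKM in the 18 libraries and 46.3 to 57.3 in the 6. Sums of several other cell types were apart too, at 88.0 to 114 and 127 to 149 FPKM for endothelial and 799 to 962 and 979 to 1210 for oligodendrocyte genes. They were 59.1 to 72.5 and 94.6 to 107 for microglia, and 360 to 783 and 845 to 1134 for choroid plexus genes. Sums overlapped for neuron (668 to 723 and 722 to 774) and astrocyte genes (137 to 159 and 149 to 176). Those of the other pericyte genes overlapped too, at 125 to 147 and 114 to 129, with the lower values in the 6. Of 5 neuron genes 2 were higher and 3 lower, and of 4 astrocyte genes 2 and 2. Of 4 oligodendrocyte genes 3 were higher, and their median of 0.52 was above that of the meningeal genes, so a shift of this kind was not particular to vessels or meninges. All 5 erythroid genes were higher (median 1.22), with sums that overlapped, at 32.9 to 189 and 123 to 204 FPKM. The part of other cell types or blood in the member differences was not tested.

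**Figure D3:**
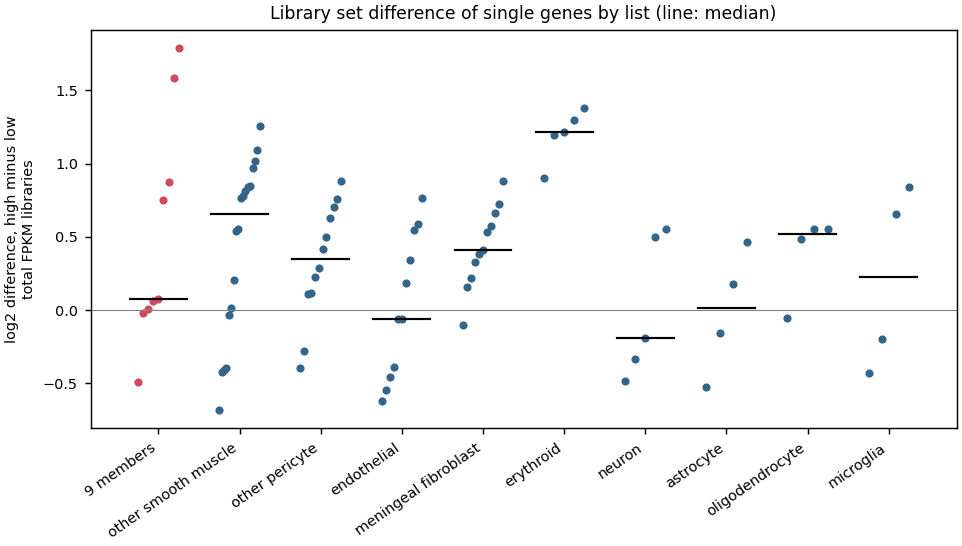
Log2 difference between the library sets (vertical axis, 6 libraries of high minus 18 of low total FPKM) of single genes in the 9 members (red) and in 9 marker lists (blue), with a line at each list's median. Erythroid genes have a median of 1.22, other smooth muscle genes 0.66, meningeal fibroblast genes 0.41 and endothelial genes -0.06.

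Angiotensin II against vehicle asks what the infusion did in mice without AECs. None of the 9 members passed an adjusted p of 0.05 in limma, and 0 of 9 had an unadjusted p under 0.05, where 2.21% of all genes had one and 0% passed after adjustment. With the library set as a term, 4 of 9 had an unadjusted p under 0.05 (3.46% of all genes) and again 0 after adjustment. These 4 were Acta2, Rgs5 and Pdgfrb, higher with angiotensin II, and Notch3, lower. The count of 4 depends on single mice: leaving out replicate 6 of vehicle or replicate 5 of angiotensin II gave 1, and leaving out replicate 1 or 2 of vehicle or replicate 1, 2, 3 or 6 of angiotensin II gave 2. Without the term the count was 1 when replicate 3 of vehicle or replicate 2 of angiotensin II was left out. The median log2 difference of the 9 members was 0.01 with the term, like that of all genes tested (0.01).

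Pdgfrb ran from 4.69 over a median of 4.82 to 4.96 FPKM in vehicle and from 4.94 over 5.15 to 5.80 FPKM in angiotensin II. The ranges met at 1 mouse a side, angiotensin II replicate 4 being lower than vehicle replicate 1. The mean was 4.83 ± 0.11 (SD, n = 6) against 5.22 ± 0.30, a log2 difference of 0.11 (SE 0.066, limma p = 0.119, two-sided exact permutation p = 0.0043 where 0.0022 is the smallest possible). With the set term the difference was 0.12 (SE 0.058, limma p = 0.050), and with labels permuted within the library sets the exact p was 0.0053, and in the 9 libraries of low total FPKM the difference was 0.07 (exact permutation p = 0.0238, limma p = 0.333). The permutation uses the 2 compared groups and limma 1 spread over all 4, and the SD of Pdgfrb was 0.55 FPKM in angiotensin II + AECs and 0.11 in vehicle.

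Rgs5 ran from 17.6 over 19.2 to 21.1 FPKM in vehicle and from 19.8 over 20.6 to 23.1 FPKM in angiotensin II. Vehicle replicate 3, at 21.1, lay above 4 of the 6 angiotensin II mice, and the other vehicle mice lay below all 6. The log2 difference was 0.13 (SE 0.068, limma p = 0.067, exact permutation p = 0.0152) and 0.14 with the set term (SE 0.063, limma p = 0.036). Without the libraries of high total FPKM it was 0.08 (limma p = 0.208, exact permutation p = 0.0794).

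Notch3 ran from 3.19 over 3.29 to 3.36 FPKM in vehicle and from 2.81 over 2.97 to 3.34 FPKM in angiotensin II. Angiotensin II replicate 2, at 3.34, lay within the vehicle range and the other 5 mice lay below it. The log2 difference was -0.12 (SE 0.061, limma p = 0.056, exact permutation p = 0.0152), -0.12 with the set term (limma p = 0.030) and -0.13 in the libraries of low total FPKM (limma p = 0.050, exact permutation p = 0.0635).

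Acta2 ran from 5.87 over 8.47 to 25.8 FPKM in vehicle and from 7.55 over 8.48 to 31.6 FPKM in angiotensin II. The groups overlapped throughout, and 2 vehicle libraries against 1 were of high total FPKM. The log2 difference was -0.05 without the set term (SE 0.46, 95% confidence interval -1.01 to 0.91) and 0.25 with it (SE 0.10, 0.03 to 0.46, limma p = 0.026), while the exact permutation p within the sets was 0.0820. In the libraries of low total FPKM Acta2 was 7.4 ± 1.8 FPKM (SD, n = 4) in vehicle and 8.32 ± 0.47 (n = 5) in angiotensin II. The log2 difference was 0.19 (limma p = 0.154, exact permutation p = 0.230), and vehicle replicate 3 held the highest of the 9 values, 10.1. Myh11 stood at 1.40 ± 0.25 and 1.62 ± 0.11 FPKM in the same libraries, a difference of 0.21 (limma p = 0.114, exact permutation p = 0.111). Tagln differed there by -0.48 (limma p = 0.044, exact permutation p = 0.0952), at means of 0.184 and 0.110 FPKM that rest on a few reads. Cnn1, Vtn and Abcc9 differed by -0.40, -0.11 and 0.05 without the set term, and by -0.14, 0.01 and -0.03 with it, where the 95% confidence intervals were -0.63 to 0.36, -0.11 to 0.13 and -0.25 to 0.20.

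**Figure D4:**
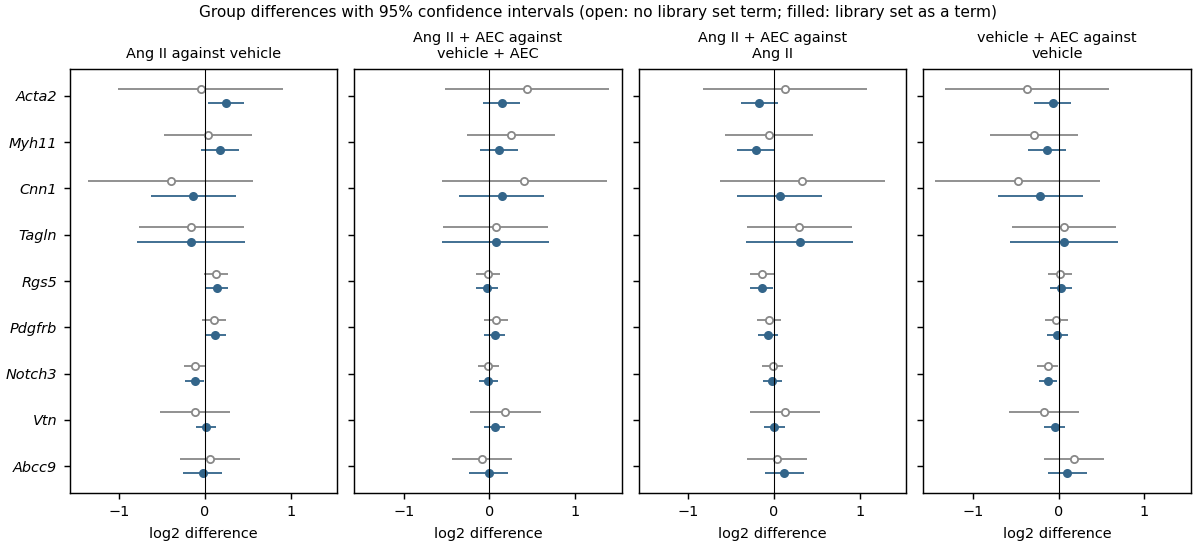
Log2 differences of the 9 genes in 4 comparisons (horizontal axes), with 95% confidence intervals, as open grey points without and filled blue points with the library set as a term; Ang II is angiotensin II and AEC amnion epithelial cells. The term narrows the intervals of Acta2, from -1.01 to 0.91 down to 0.03 to 0.46 in the first panel, and leaves those of Notch3, Pdgfrb and Rgs5 nearly as they were.

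Angiotensin II + AECs against angiotensin II asks what the cells did in infused mice. It shares the angiotensin II mice with the comparison before, so a high or low value there enters both with opposite sign. Again 0 of 9 members had an unadjusted p under 0.05 (2.54% of all genes), and 1 of 9 had one with the set term (3.90% of all genes), with 0% after adjustment in limma either way. That member was Rgs5, which ran from 15.7 over 18.8 to 23.2 FPKM with AECs. Replicate 2 with AECs, at 15.7, was the lowest of the 24 mice and replicate 6, at 23.2, the highest. The log2 difference was -0.14 (SE 0.068, limma p = 0.059, exact permutation p = 0.152), -0.15 with the set term (limma p = 0.031) and -0.18 in the libraries of low total FPKM (limma p = 0.0086, exact permutation p = 0.0317). With the set term it missed 0.05 without angiotensin II replicate 2 or 5 or without angiotensin II + AECs replicate 1, 2, 3 or 5, and was -0.09 without the lowest mouse. Without the term the count of members was 1 when angiotensin II replicate 1 or angiotensin II + AECs replicate 4 or 6 was left out.

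Myh11 ran from 1.37 over 1.47 to 2.65 FPKM in angiotensin II + AECs and from 1.49 over 1.66 to 3.26 FPKM in angiotensin II. Within each library set the values with AECs were the lower ones, but for replicate 4 with AECs, at 1.501, against angiotensin II replicate 2, at 1.49. Permuted within the sets, the log2 difference was -0.21 (exact p = 0.0053, where 0.0026 is the smallest possible), and in limma with the set term it was -0.21 (SE 0.106, p = 0.063). For Acta2 the same values were -0.18 (exact p = 0.0159) and -0.17 (SE 0.10, limma p = 0.109). Without the set both contrasts were within error, at -0.06 for Myh11 and 0.12 for Acta2 (exact permutation p = 0.857 and 0.994). Exact tests were made for 36 pairs of a gene and a comparison, each in 3 forms (all mice, within the sets, and the libraries of low total FPKM), and these p-values are not adjusted for that number.

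Vehicle + AECs against vehicle asks what the cells did without angiotensin II, and shares the vehicle mice with the first comparison. Here 1 of 9 members had an unadjusted p under 0.05 (2.41% of all genes), and the same 1 with the set term (3.54% of all genes), with 0% after adjustment. It was Notch3, which ran from 2.81 over 2.96 to 3.31 FPKM in vehicle + AECs. Of these 6 mice, 5 lay below all vehicle mice, and replicate 6, the library of high total FPKM, lay within their range. The log2 difference was -0.13 (SE 0.061, limma p = 0.047, exact permutation p = 0.0130) and -0.16 in the libraries of low total FPKM (limma p = 0.017, exact permutation p = 0.0079). The limma call without the term held only when vehicle + AECs replicate 2 or 6 was the mouse left out, and was lost without any of the other 10. With the term it was lost without vehicle + AECs replicate 1 or 4 only. In the same comparison with the term, 3 of 11 meningeal fibroblast genes had an unadjusted p under 0.05, all lower: the collagen gene Col1a1 (-0.28, SE 0.094) and the proteoglycan genes Lum (-0.28, SE 0.11) and Dcn (-0.18, SE 0.084). Without the term it was 1, Lum (-0.34, SE 0.14), and the part of meninges in the Notch3 difference was not tested.

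Angiotensin II + AECs against vehicle + AECs repeats the infusion in mice that had the cells. There 0 of 9 members had an unadjusted p under 0.05, both without the set term (2.66% of all genes) and with it (4.01%), and 0% passed after adjustment. Either count became 1 without angiotensin II + AECs replicate 1. Without the term the differences were 0.07 for Pdgfrb, -0.02 for Rgs5, -0.01 for Notch3 and 0.44 for Acta2 (95% confidence interval -0.52 to 1.40). With the term they were 0.06 for Pdgfrb (-0.06 to 0.18), -0.03 for Rgs5 (-0.16 to 0.10), -0.01 for Notch3 (-0.12 to 0.09) and 0.14 for Acta2 (-0.07 to 0.36). Here Col1a1 was at 0.60 without the term (SE 0.24) and 0.45 with it (SE 0.094, limma adjusted p = 0.625), and the endothelial gene Pecam1 at 0.18 and 0.19 (SE 0.080 and 0.073), each with an unadjusted p under 0.05. The interaction, which tests whether the angiotensin II difference itself differed with the cells, had 0 of 9 members at an unadjusted p under 0.05 without the term (2.54% of all genes) and with it (3.41%), and 0% after adjustment. For Rgs5 it was -0.15 without the term (SE 0.097) and -0.17 with it (SE 0.090). For Notch3 it was 0.11 in both (SE 0.086 and 0.074), and for Pdgfrb -0.03 and -0.06 (SE 0.094 and 0.083). The count was 1 when angiotensin II + AECs replicate 6 was left out, and with the term also when vehicle replicate 3, vehicle + AECs replicate 6 or angiotensin II + AECs replicate 4 was. A difference between mice with and without AECs in the response of these genes was not shown, and the intervals with the term of Notch3, -0.05 to 0.26, and Rgs5, -0.36 to 0.02, hold values as large as the differences seen without the cells.

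The remaining members overlapped across the 4 groups. Vtn ran from 38.2 over 45.1 to 78.7 FPKM in vehicle, 42.1 over 44.9 to 66.3 in angiotensin II, 37.7 over 41.3 to 78.3 in vehicle + AECs and 40.2 over 45.9 to 71.5 in angiotensin II + AECs. Abcc9 ran from 0.466 over 0.757 to 0.999, 0.579 over 0.764 to 0.902, 0.597 over 0.852 to 0.964 and 0.508 over 0.808 to 1.03 FPKM in the same order. The highest Vtn and the lowest Abcc9 value of each group came from a library of high total FPKM. Cnn1 had medians of 0.327, 0.256, 0.246 and 0.297 FPKM, and Pdgfrb in the groups with AECs had medians of 4.84 and 4.98 FPKM.

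Among the other genes of the pathways, 0 passed an adjusted p of 0.05 in any of these comparisons by limma. Among these genes, lower or higher is written where the unadjusted p was under 0.05. Of 18 other smooth muscle genes and 12 other pericyte genes, 0 had an unadjusted p under 0.05 with angiotensin II against vehicle, with the set term or without. With AECs in infused mice, 2 smooth muscle genes had one with the term, both lower, where 3.90% of all genes had one: Myl9 (log2 difference -0.15, SE 0.069) and Flna (-0.13, SE 0.051). With AECs in vehicle mice it was 1 with the term (3.54% of all genes), the tropomyosin gene Tpm2 (-0.17, SE 0.075). Without the term 0 of 18 had one in either comparison, and Myl9 then stood at 0.06 (SE 0.33), on the other side of 0. With angiotensin II against vehicle and the term, 2 of 11 endothelial genes had one (3.46% of all genes), Kdr (-0.22, SE 0.11) and Ly6c1 (0.14, SE 0.059). Without the term it was 0 (2.21% of all genes).

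The Notch list of 14 genes besides Notch3 held ligands, receptors and targets. Notch4, the endothelial receptor, was lower with AECs in infused mice, at -0.25 on the log2 scale without the term (SE 0.098) and -0.26 with it (SE 0.088). The target Hes1 was lower in vehicle + AECs than in vehicle, at -0.29 (SE 0.14) and -0.21 with the term (SE 0.082), and lower with angiotensin II than with vehicle only with the term (-0.19, SE 0.082). Dll4, an endothelial ligand, was higher in angiotensin II + AECs than in vehicle + AECs (0.35, SE 0.14, and 0.34 with the term, SE 0.14). Each of these was 1 of 14 Notch genes in its comparison. Over the 4 comparisons, 2.21% to 2.66% of all genes had an unadjusted p under 0.05 without the term and 3.46% to 4.01% with it. In the PDGF list of 5 genes, Pdgfb, the ligand of PDGFRβ, had a median of 7.74 FPKM and no unadjusted p under 0.05 in the 4 comparisons. Pdgfra, the receptor of oligodendrocyte precursors, was higher in vehicle + AECs than in vehicle with the set term (0.20, SE 0.060), and lower in angiotensin II + AECs than in vehicle + AECs, also with the term (-0.15, SE 0.060). It was 1 of 5 PDGF genes in each, where 3.54% and 4.01% of all genes had an unadjusted p under 0.05. Without the term 0 of the 5 PDGF genes had an unadjusted p under 0.05 in either comparison. Srf, the serum response factor, stood at 14.1 to 20.9 FPKM. Myocd, its smooth muscle coactivator myocardin, stood at 0 to 0.10 FPKM. It was lower in vehicle + AECs than in vehicle (-0.36, SE 0.15, and -0.41 with the term, SE 0.14), at levels of few reads. In that comparison it was 1 of 4 SRF and myocardin genes, against 2.41% of all genes without the term and 3.54% with it.

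Over the 18 libraries of low total FPKM, values were compared in pairs. Group means were not subtracted, so differences between groups enter these values. Of 36 pairs, 4 had an adjusted permutation p under 0.05 for Pearson's r. Acta2 and Myh11 went together most closely (r = 0.868, rho = 0.785, adjusted permutation p = 0.0004 and 0.0068), and r was 0.835 without the 2 mice farthest from the median of Acta2. Abcc9 went against both, at r = -0.682 with Acta2 (rho = -0.587, adjusted permutation p = 0.035 and 0.064; r = -0.551 without 2 mice) and r = -0.649 with Myh11 (rho = -0.643, adjusted permutation p = 0.035 and 0.046; -0.581 without 2 mice). Myh11 and Vtn had r = 0.658 (rho = 0.529, adjusted permutation p = 0.035 and 0.101), which fell to 0.398 without 2 mice and so rests on them. Rgs5 went with Acta2 by rank (rho = 0.746, adjusted permutation p = 0.0078; r = 0.607, 0.051) and with Myh11 (rho = 0.748, 0.0077; r = 0.535, 0.103). Pdgfrb, Notch3, Cnn1 and Tagln had no pair that passed. Within the 6 libraries of high total FPKM 0 of 36 pairs passed, and Acta2 and Myh11 had r = 0.627.

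**Figure D5:**
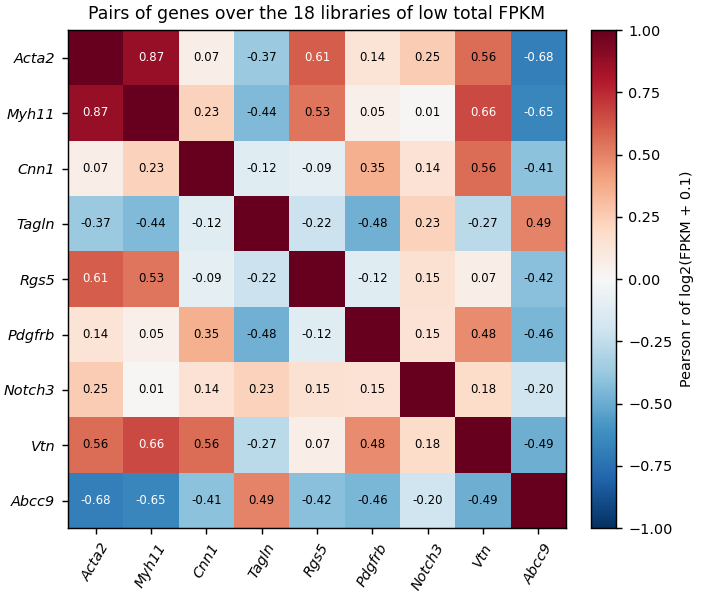
Pearson's r of log2(FPKM + 0.1) for each pair of the 9 genes over the 18 libraries of low total FPKM, group means not subtracted, from blue (-1) to red (1). Acta2 and Myh11 stand out at 0.87, and the row of Abcc9 is negative except with Tagln.

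These points share their library, and the library measures were set beside them, again without subtracting group means. Against the mean of 16 other smooth muscle genes, Myh11 had r = 0.748 (rho = 0.80, adjusted permutation p over 54 relations = 0.0135 and 0.0076), Acta2 r = 0.679 (rho = 0.618, 0.037 and 0.051) and Abcc9 r = -0.765 (rho = -0.690, 0.012 and 0.048). Abcc9 was not negative against smooth muscle genes only. It had r = -0.538 against other pericyte genes (rho = -0.680, adjusted permutation p = 0.087 and 0.048). Against endothelial and meningeal fibroblast genes its r was -0.604 and -0.521 (adjusted permutation p = 0.072 and 0.093), and against erythroid genes 0.059. Acta2 and Myh11 each had r = 0.562 against endothelial genes (adjusted permutation p = 0.087). Against total FPKM within the same 18 libraries, r was 0.645 for Cnn1, 0.550 for Myh11 and -0.551 for Abcc9 (adjusted permutation p = 0.056, 0.087 and 0.087), with rho of 0.622, 0.492 and -0.525, none of which passed.

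For the genes most like each member over the same 18 mice, group means were subtracted first. By r among 13643 genes of a mean FPKM of at least 1, they were mostly not vascular markers. They were Pxdc1 for Acta2 (r = 0.872), Atp6v0b, a subunit of the vacuolar proton pump, for Myh11 (0.859), Dnajb2 for Cnn1 (0.906) and Slc25a39 for Vtn (0.903). Osbpl11 was nearest to Abcc9 (0.918), Cpt1a, the mitochondrial carnitine palmitoyltransferase, to Pdgfrb (0.869), Clic6, a choroid plexus gene, to Rgs5 (0.813), Dynlrb2 to Notch3 (0.830) and Nr1d1, a clock gene, to Tagln (0.822). As the highest of 13643 values each, these are a description.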

How the data were processed

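RNA of brain hemispheres was taken from 24 mice in 4 groups of 6, grouped by the labels. Per the study's methods, poly(A) RNA was sequenced on an Illumina HiSeq and mapped to the Ensembl mouse genome and annotation. The build (GRCm38, mm10) and DESeq 1.10.1 come from the submitters' processing notes, and the aligner, the counter and the use of strand are not given in the sources used here. The authors deposited FPKM, fragments divided by gene length and library size, beside the gene length. All values were whole multiples of 1 read (100%, tolerance 0.1 read), so reads were recovered, for depth, counting error, shares of reads and voom, while the main test used FPKM.

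Genes above 0 in at least 6 mice were fitted on the log2(FPKM + 0.1) scale by limma (3.58.1, under R 4.3.3), which understates changes of low genes, with all groups in 1 fit, a trend and Benjamini-Hochberg adjustment. Single members were also tested by two-sided exact permutation of 6 against 6 mice. Adding the library set as a term, and the libraries of low total FPKM alone, were alternatives, as were other pseudocounts, filters, median ratio scaling, voom scaled by total reads, the replicate number as a block and leaving out each mouse. Permutation within sets, and the set term combined with the block, voom, scaling or a left-out mouse, were chosen after seeing the data. The scaling of voom by total reads replaced TMM scaling after both had been seen. With TMM, the library-set differences of Pdgfrb and Rgs5 were near those of median ratio scaling, and the replaced values are not given. On simulated data 164 of 200 changed genes were called, with 9 false calls, for angiotensin II against vehicle over 28523 genes. The simulation gave all genes the same spread, held no difference between library sets and changed only genes above a minimum mean of reads. Its counts therefore do not give the sensitivity of the fits to the real data. The members, marker lists and tests were chosen with earlier results of these data known. Named from the lists were genes with an unadjusted p under 0.05 (at most 4 per list and comparison, of which some are not repeated here) and a few markers set with the lists, while Des, Cald1 and Flna between the library sets were chosen after their values were seen. Each replicate is a mouse. The p-values set group differences against the spread between these mice and take the mice as independent. Nothing says how mice were spread over preparation days, so this could not be checked. The limma intervals rest on the spread between mice, which includes counting error. Python 3.11.15 and matplotlib 3.10.9 were used for tables and plots.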

Additional observations from a re-analysis of the deposited data

Results flagged for a closer look

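In 36 groups of 6 values (9 genes in 4 groups), 7 times a single mouse stood far from the other 5, by Dixon's 95% limit, which chance passes in about 1 in 20 groups. All 7 are libraries of high total FPKM in the groups that hold only 1 of them. Angiotensin II replicate 5 stood apart in Acta2 (31.6 FPKM, next 8.81), Myh11 (3.26, next 1.77), Cnn1 (0.941, next 0.296), Pdgfrb (5.80, next 5.22) and Vtn (66.3, next 45.6). Vehicle + AECs replicate 6 stood apart in Acta2 (23.7 FPKM, next 7.92) and Vtn (78.3, next 44.9). In 0 of the 9 genes did the interaction of angiotensin II and AECs pass the threshold.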

How the results depend on the processing

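Unadjusted p-values under 0.05 among the 9 members are counted here, and the adjusted count was 0 in each fit reported. For angiotensin II against vehicle the count was 0, 1 with no filter on low values, 1 with a mean FPKM of at least 1, 1 with the replicate block, 1 with median ratio scaling, 1 with only the compared groups, 2 in the libraries of low total FPKM and 4 with the library set as a term. For angiotensin II + AECs against angiotensin II it was 0, and 1 with the set term or in the libraries of low total FPKM, and for vehicle + AECs against vehicle it was 1, and 0 with a pseudocount of 1, with voom or with only the compared groups. Leaving out each mouse gave 0 to 1 in each of the 5 comparisons. With the set term, leaving out each mouse gave 1 to 4 for angiotensin II against vehicle and 0 to 1 in the other 4 comparisons. The 4 calls of angiotensin II against vehicle with the set term became 3 with the replicate block, 3 with voom and 3 with median ratio scaling. In angiotensin II + AECs against angiotensin II with the set term, the count was 0 with the replicate block and 2 with voom.

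Deviations of same-numbered mice from their group means had r of -0.22 to 0.80 (36 pairs, 28 over 0.1). The library set was not subtracted and differently numbered mice were not compared, so these values cannot decide for or against a block. Nothing says that a number marks a litter or batch, so the replicate block is an alternative only. It gave 1 call in angiotensin II against vehicle and 1 in vehicle + AECs against vehicle.

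Directions turned in 57 values of single members, 1 of which had a p under 0.05 in the alternative, and the cause was not tested. With the set as a term, log2 differences turned to 0.25 (Acta2, the one with a p under 0.05), -0.027 (Abcc9) and 0.0102 (Vtn) in angiotensin II against vehicle, to -0.17 (Acta2) in angiotensin II + AECs against angiotensin II, and to -0.10 (Acta2), -0.069 (Myh11) and 0.019 (Abcc9) in the interaction. In the libraries of low total FPKM they turned to 0.19 (Acta2), -0.072 (Abcc9) and 0.046 (Vtn) in angiotensin II against vehicle, to -0.23 (Tagln), -0.0032 (Cnn1) and 0.038 (Notch3) in angiotensin II + AECs against vehicle + AECs, to -0.15 (Acta2), -0.00066 (Cnn1), -0.0038 (Vtn) and 0.0064 (Notch3) in angiotensin II + AECs against angiotensin II, to -0.0016 (Rgs5) in vehicle + AECs against vehicle, and to -0.055 (Acta2), -0.12 (Myh11) and 0.057 (Abcc9) in the interaction. With voom Tagln turned to -0.020 in vehicle + AECs against vehicle.

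Leaving out 1 mouse at a time, the ranges that crossed 0 were as follows. In angiotensin II against vehicle they were -0.37 to 0.20 (Acta2), -0.39 to 0.019 (Tagln), -0.13 to 0.20 (Myh11), -0.052 to 0.14 (Abcc9) and -0.21 to 0.0104 (Vtn). In angiotensin II + AECs against vehicle + AECs they were -0.16 to 0.17 (Tagln), -0.076 to 0.037 (Rgs5), -0.17 to 0.014 (Abcc9) and -0.042 to 0.016 (Notch3). In angiotensin II + AECs against angiotensin II they were -0.12 to 0.44 (Acta2), -0.18 to 0.10 (Myh11), -0.036 to 0.14 (Abcc9) and -0.047 to 0.012 (Notch3). In vehicle + AECs against vehicle they were -0.082 to 0.29 (Tagln) and -0.0091 to 0.043 (Rgs5), and in the interaction -0.068 to 0.023 (Pdgfrb). Depth limits Tagln, with 1 to 14 reads per mouse, and Cnn1, with 4 to 64.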
